A study of Mus musculus with 8 samples.

Results

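The genes described here are 37 genes of protein entry, folding and quality control in the endoplasmic reticulum (ER) of mouse gastrocnemius (GAS) muscle, with the sensors of the unfolded protein response (UPR). They were taken by name from a fixed list, as every row of the array table that names one of them, and 37 of its 21980 gene symbols are members. Each had 1 row. The study injected an adeno-associated virus (AAV) of serotype 1 into the GAS of male C57/Bl6j mice aged about 10 weeks and collected the muscle 12 weeks later, at 22 weeks. MYTHO-KD muscles received a short hairpin RNA (sh-RNA) against D230025D16Rik, the gene that encodes MYTHO, and scramble muscles received the same kind of vector with a scramble sh-RNA in the opposite leg. The U6 promoter drove the sh-RNA in both vectors and is not particular to muscle cells, although the serotype favours skeletal muscle. Total RNA of 4 muscles per group was hybridised to Clariom S Mouse arrays, and the question was which transcripts differ after prolonged loss of MYTHO. The methods of the study describe 1 sh-RNA against the target in this vector. Loss of MYTHO and any other effect of that sh-RNA therefore cannot be told apart here. The table holds the authors' average and SD of each group on the log2 scale and no value of a single array, so every level below is an average ± SD of 4 arrays, and overlap of single values between groups was not seen. Arrays have no sequencing depth, and their number limits the precision.

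Proteins bound for secretion or for membranes are recognised by the signal recognition particle, which docks at its receptor and hands the growing chain to the Sec61 channel. Inside the ER, Hsp70 and lectin chaperones and protein disulfide isomerases fold the chain, while misfolded chains are drawn back to the cytosol and destroyed by ER-associated degradation (ERAD). When unfolded chains accumulate, the sensors Ire1, Atf6 and Perk start the unfolded protein response, which raises transcription of many of the same chaperones. In muscle the sarcoplasmic reticulum, the calcium store of the fibre, is a specialised form of this organelle.

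Many of these genes carry a short shared sequence in front of their start, the ER stress response element (ERSE), to which Atf6 and Xbp1 are known to bind together with NF-Y. RefSeq promoters (GRCm38.p6, 250 bases before to 50 after the start) were found for 31 members, 2 of them, Ero1l and Ero1lb, under their newer symbols. The letters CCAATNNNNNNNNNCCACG, on either strand, were found in 10 of the 31, or 32.3%, against 37 of all 27025 genes with a promoter in that table, or 0.137%. The ERSE-bearing members are shown because the element is what ties chaperones of different families to the response. Sequences run 5′ to 3′ on the strand of the gene, with 10 bases on either side, and capitals mark CCAAT and CCACG, or ATTGG and CGTGG where the element lies on the opposite strand.
Hspa5, chr2:34772015-34772053, plus strand: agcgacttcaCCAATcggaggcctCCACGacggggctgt
Dnajc3, chr14:118937817-118937855, plus strand: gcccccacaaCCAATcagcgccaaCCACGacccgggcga
Creld2, chr15:88819510-88819548, plus strand: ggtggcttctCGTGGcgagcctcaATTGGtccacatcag
Hsp90b1, first copy, chr10:86705523-86705561, minus strand: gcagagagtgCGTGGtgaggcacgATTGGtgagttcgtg
Hsp90b1, second copy, chr10:86705628-86705666, minus strand: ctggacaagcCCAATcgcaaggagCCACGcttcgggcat
Canx, chr11:50325790-50325828, minus strand: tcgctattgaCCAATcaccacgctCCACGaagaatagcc
Calr, chr8:84847065-84847103, minus strand: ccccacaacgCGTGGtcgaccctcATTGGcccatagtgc
Pdia6, chr12:17266481-17266519, plus strand: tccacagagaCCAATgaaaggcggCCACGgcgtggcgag
Ero1lb, chr13:12565672-12565710, plus strand: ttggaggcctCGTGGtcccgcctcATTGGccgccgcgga
Syvn1, chr19:6046522-6046560, plus strand: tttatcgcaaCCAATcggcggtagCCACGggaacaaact
Derl3, chr10:75893232-75893270, plus strand: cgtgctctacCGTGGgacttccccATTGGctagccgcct
The element lay between 44 bases (Syvn1) and 212 bases (second copy of Hsp90b1) before the start. A compact variant, ERSE-II (ATTGGNCCACG), was found in Dnajb11 and Herpud1 and in the promoters of 12 genes in all, or 0.0444%. Its CCACG piece can overlap that of an ERSE. The copy in Herpud1 begins 52 bases before the start and is shown with its pieces in capitals.
Herpud1, chr8:94386367-94386397, plus strand: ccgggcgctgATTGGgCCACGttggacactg
The UPR element TGACGTGG, searched on both strands, was in the promoters of 193 genes, or 0.714%, and in 0 of the 31 of these genes, which says only that those letters are not in this window. The reverse complement of that element begins with CCACG and can overlap an ERSE. A match of letters is a description and not a measured binding site.

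The targeted transcript checked the labels. D230025D16Rik averaged 7.71 ± 0.66 in MYTHO-KD and 10.02 ± 0.37 in scramble muscles, a log2 difference of -2.31 (SE 0.304, limma adjusted p = 0.0138), or 20.2% of the scramble level. The label of muscle was borne out by the levels of 14 fibre markers, not by the flag for expression, which most probe sets bear. Their averages ran from 16.34 to 19.93, where the mean over all probe sets was 7.51 in each group. Of the 14 markers, 5 reached the upper end of the array's range, which can hide a higher level.

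Among the ER genes, 1 transcript changed strongly and downwards. Srpr, which encodes the alpha subunit of the signal recognition particle receptor, was at 32.3% of its scramble level, and it was the only member past the 2-fold rule of the study. Beside it stood a broad set of small differences the other way, led by the lectin chaperone Canx, the Hsp70-related Hyou1 and the mannosidase-like Edem1, and none of these passed an adjusted p. In counts, 28 of the 37 genes had the higher average in MYTHO-KD and 9 the lower, where 46.9% of all 22206 probe sets had the higher and 51.4% the lower. The median log2 difference of the 37 genes was 0.20, and that of all probe sets was -0.01. At an unadjusted p under 0.05 by limma, 7 genes were higher, where 6.48% of all probe sets were called higher, and 1 was lower, where 5.52% were called lower. After adjustment over all probe sets, 0 genes were higher (background 0.18%) and 1, Srpr, was lower (background 0.0946%). At 2-fold with an unadjusted p under 0.05, 0 genes were higher (background 0.86%) and Srpr was lower (background 0.257%). All 37 genes were flagged as expressed in both groups, with averages from 5.15 to 14.93. The flag sets few genes apart, since 21610 of all 22206 probe sets bore it in scramble and 21360 in MYTHO-KD. The 95% intervals had half-widths of 0.32 to 0.58 on the log2 scale, and for 33 of the 37 genes the interval lay inside a 2-fold change either way.

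**Figure D1:**
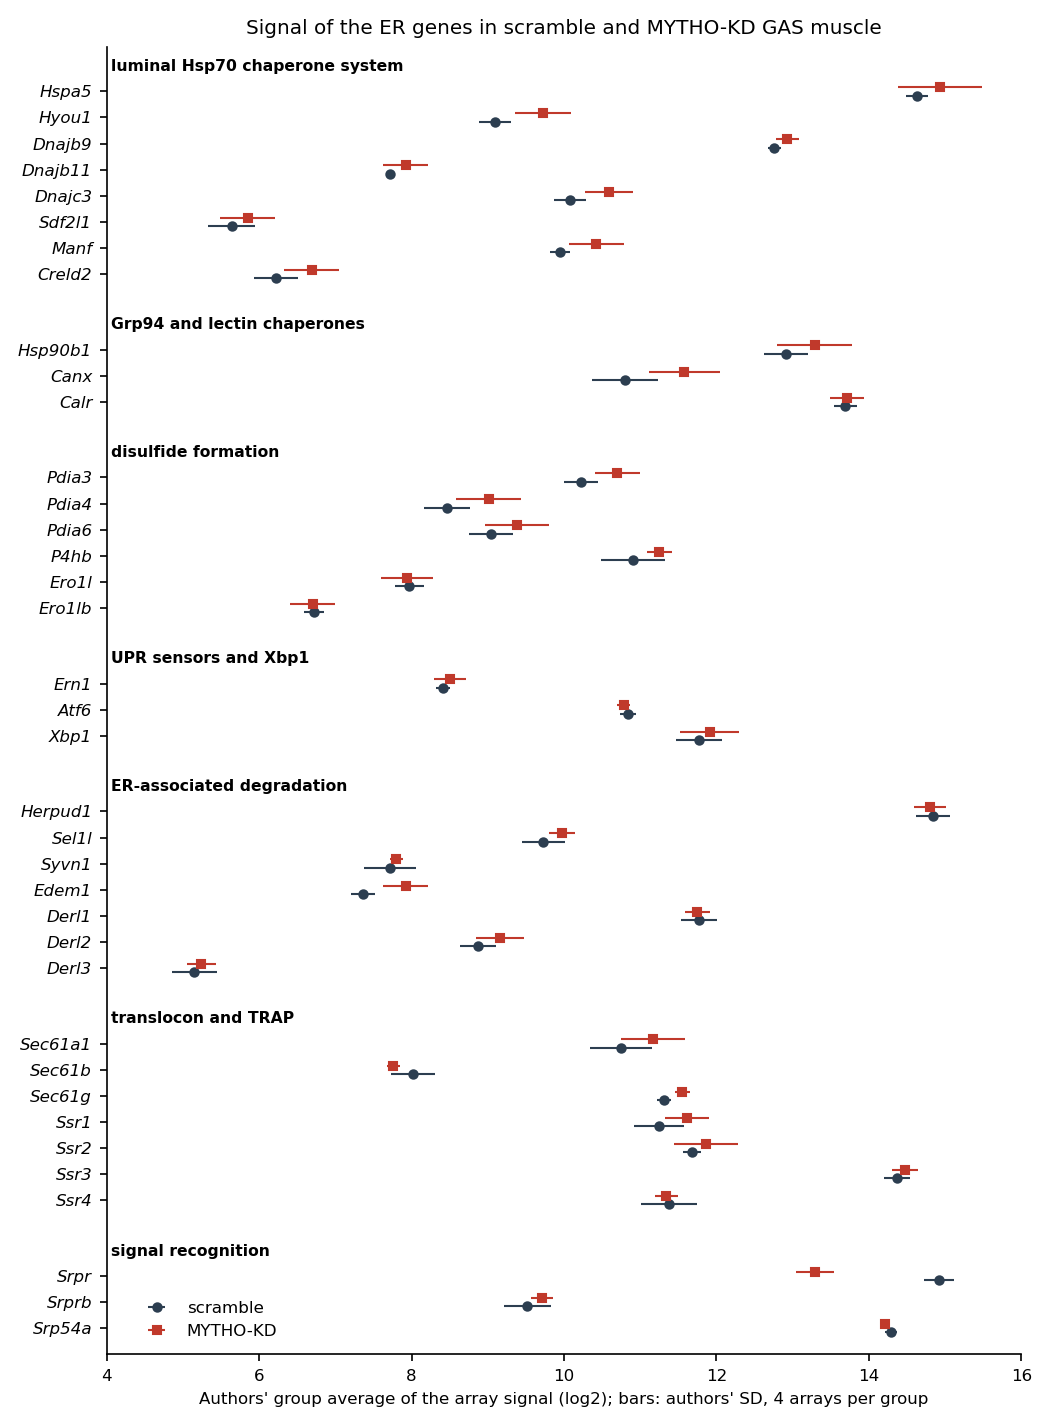
Group averages of the array signal (log2, x axis) of the 37 ER genes in scramble (circles) and MYTHO-KD (squares) muscles, grouped by role, with the authors' SD of 4 arrays as bars. The squares of all 8 Hsp70-system genes lie to the right of the circles by 0.17 to 0.62, and Srpr alone lies far to the left, at 13.29 against 14.92.

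At the entry to the ER, the 3 genes of signal recognition did not move together. Srpr averaged 13.29 ± 0.25 in MYTHO-KD and 14.92 ± 0.20 in scramble muscles. The distance between the averages was many times either SD. It fell by 1.63 on the log2 scale (SE 0.181, 95% interval -2.03 to -1.23, limma adjusted p = 0.00546), to 32.3% of the scramble level. By p, Srpr ranked 5 of all probe sets, and by size 10 among the falls. Over 8 alternative settings its unadjusted p was at most 7.01e-05, while its adjusted p ranged from 0.000363 to 0.175. Only the 2 centrings could change the difference itself, to -1.62 and -1.65. The setting with the lowest row repeated the main fit, because each gene had 1 row. The adjusted p was over 0.05 when each probe set kept its own variance (0.0966) and when group variances were treated as unequal (0.175).

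The table places the Srpr probe set at chr9:35200047-35247973 on the plus strand (mm10), a wider span than the RefSeq gene at chr9:35211203-35217003. Genes of the opposite strand lie within or beside that span. Foxred1 averaged 6.87 ± 0.23 in MYTHO-KD and 7.16 ± 0.44 in scramble muscles. Fam118b, whose end overlaps that of Srpr, averaged 8.58 ± 0.08 and 8.62 ± 0.16. Tirap averaged 8.96 ± 0.31 and 9.01 ± 0.26. None of these 3 neighbours passed an unadjusted p under 0.05 in limma, and their log2 differences were -0.29, -0.04 and -0.05.

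The partner of Srpr in the receptor, the membrane-anchored beta subunit encoded by Srprb, averaged 9.71 ± 0.15 in MYTHO-KD and 9.52 ± 0.31 in scramble muscles. Its log2 difference was 0.19 (95% interval -0.22 to 0.60), which did not pass the test, and this interval does not reach the difference of Srpr. Srp54a encodes the GTPase of the particle that binds the signal sequence and meets the receptor. It averaged 14.21 ± 0.06 and 14.29 ± 0.08, a log2 difference of -0.08 (-0.40 to 0.24). Srp54a has near-identical neighbours, Srp54b and Srp54c, so the probe sets of the 3 copies may share signal and the value of each is uncertain. The log2 differences were 0.03 for Srp54b and -0.27 for Srp54c, the latter on a probe set that also names Srp54b. Neither passed an unadjusted p under 0.05.

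**Figure D2:**
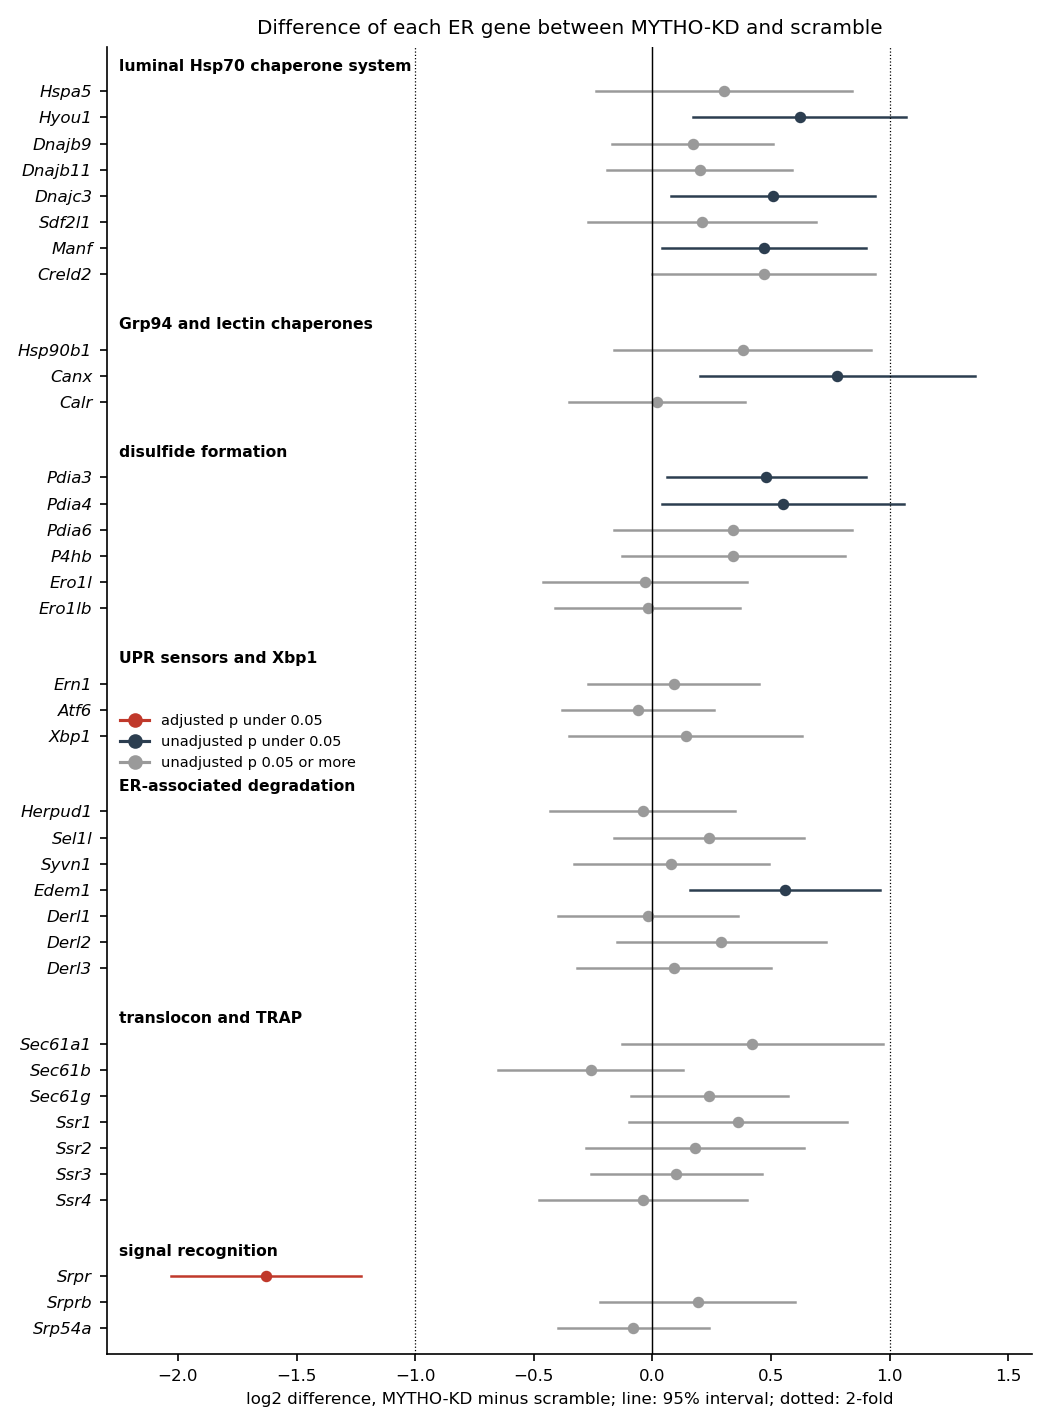
Log2 difference (MYTHO-KD minus scramble, x axis) of each ER gene with its 95% interval, grouped by role, with dotted lines at a 2-fold change either way. Srpr (red) is the only gene past an adjusted p of 0.05 and the only one whose whole interval lies beyond 2-fold, and the 7 dark points to the right of 0 passed an unadjusted p only.

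The channel itself and its accessory complex showed 0 genes past an unadjusted p, where 6.48% of all probe sets were called higher and 5.52% lower. Sec61a1 encodes the pore, and averaged 11.17 ± 0.42 in MYTHO-KD and 10.75 ± 0.41 in scramble muscles. Sec61b and Sec61g encode its small subunits. For Sec61b the averages were 7.76 ± 0.09 and 8.02 ± 0.29, and for Sec61g 11.55 ± 0.10 and 11.31 ± 0.09. The 3 subunits had log2 differences of 0.42, -0.26 and 0.24, with limma unadjusted p = 0.122, 0.169 and 0.133. Sec61g passed the threshold without moderation of the variances (unadjusted p = 0.0118). Ssr1 to Ssr4 encode the translocon-associated protein (TRAP) complex, which helps some chains into the channel. Ssr1 had the largest difference of the 4, 11.61 ± 0.29 against 11.25 ± 0.33. The log2 differences of Ssr1, Ssr2, Ssr3 and Ssr4 were 0.36, 0.18, 0.10 and -0.04, and the median of the 7 channel and TRAP genes was 0.18.

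All 8 genes of the luminal Hsp70 system had the higher average in MYTHO-KD, 3 of them at an unadjusted p under 0.05, with a median log2 difference of 0.385. Over all probe sets, 46.9% had the higher average and 6.48% were higher at that p. Hspa5 encodes BiP, the ER Hsp70 that holds unfolded chains and keeps the UPR sensors silent. It averaged 14.93 ± 0.55 in MYTHO-KD and 14.63 ± 0.14 in scramble muscles. The difference of 0.30 was smaller than the MYTHO-KD SD and did not pass the test (limma unadjusted p = 0.247, 95% interval -0.24 to 0.84). Hyou1, the large Hsp70-related exchange factor of BiP, averaged 9.72 ± 0.37 and 9.10 ± 0.21. It was 1.54-fold higher (log2 0.62, SE 0.207, limma unadjusted p = 0.0113, adjusted p = 0.255).

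Dnaj proteins deliver substrates to BiP and start its ATPase. Dnajc3 (P58IPK), which also inhibits the kinase Perk, averaged 10.59 ± 0.32 in MYTHO-KD and 10.08 ± 0.21 in scramble muscles, a log2 difference of 0.51 (SE 0.196, limma unadjusted p = 0.0234, adjusted p = 0.325). Dnajb9 (ERdj4) averaged 12.93 ± 0.15 and 12.76 ± 0.09, and Dnajb11 (ERdj3) 7.92 ± 0.30 and 7.72 ± 0.04. Their log2 differences of 0.17 and 0.20 did not pass the test.

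Sdf2l1 works with ERdj3, and Manf and Creld2 are small secreted proteins known to be made when the ER is stressed. Manf averaged 10.42 ± 0.36 in MYTHO-KD and 9.95 ± 0.13 in scramble muscles, a log2 difference of 0.47 (SE 0.196, limma unadjusted p = 0.0339, adjusted p = 0.370). Its probe set also names Rbm15b, which neighbours it on chromosome 9, so the signal of the 2 genes cannot be told apart. Creld2 averaged 6.69 ± 0.36 and 6.22 ± 0.29, and its log2 difference of 0.47 (SE 0.217, limma unadjusted p = 0.0512) lay at the threshold. It passed when the table was centred on the median of all probe sets (limma unadjusted p = 0.0471). Sdf2l1 averaged 5.85 ± 0.36 and 5.64 ± 0.31.

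Hsp90b1 encodes Grp94, the ER Hsp90, while Canx and Calr encode calnexin and calreticulin, which hold glycoproteins by their sugar. The membrane-bound lectin Canx averaged 11.58 ± 0.46 in MYTHO-KD and 10.80 ± 0.43 in scramble muscles. This log2 difference of 0.78 (SE 0.265, 1.72-fold, limma unadjusted p = 0.0124, adjusted p = 0.263) was the largest positive difference among the 37 genes. Its soluble relative Calr averaged 13.71 ± 0.22 and 13.69 ± 0.15, a difference of 0.02 (95% interval -0.35 to 0.39). Whether Canx and Calr differ from each other in response was not tested. Hsp90b1 averaged 13.29 ± 0.49 and 12.91 ± 0.29, a difference of 0.38 with a limma unadjusted p = 0.150.

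The arrays of these 11 chaperone and cochaperone genes were more scattered in MYTHO-KD. All 11 had the larger SD there, with a median SD of 0.36 against 0.21 in scramble, where 48.1% of all probe sets had the larger SD in MYTHO-KD. Over the 37 genes the count was 24, or 64.9%. Genes of 1 pathway on the same arrays are not independent, and which muscles held the high values is not in the table.

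Of 6 genes that form and rearrange disulfide bonds, 4 had the higher average in MYTHO-KD and 2 of these an unadjusted p under 0.05. The shares over all probe sets were 46.9% and 6.48%. Pdia3, the isomerase that works with calnexin and calreticulin, averaged 10.70 ± 0.29 in MYTHO-KD and 10.22 ± 0.22 in scramble muscles (log2 difference 0.48, SE 0.192, limma adjusted p = 0.344). Pdia4 averaged 9.01 ± 0.43 and 8.46 ± 0.30 (log2 difference 0.55, SE 0.234, limma adjusted p = 0.380), on a probe set that also names the microRNA gene Mir704. Pdia6 and P4hb, the classical isomerase that is also a subunit of collagen prolyl hydroxylase, each had a log2 difference of 0.34. For Pdia6 the averages were 9.38 ± 0.42 and 9.04 ± 0.29, and for P4hb 11.25 ± 0.16 and 10.91 ± 0.42, and neither passed the test. The oxidases that reload the isomerases had smaller differences, but oxidases and isomerases were not compared by a test. Ero1l averaged 7.94 ± 0.34 and 7.97 ± 0.19, and Ero1lb 6.70 ± 0.29 and 6.72 ± 0.13, with log2 differences of -0.03 and -0.02 and intervals that ended at 0.40 and 0.37.

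The sensors of the unfolded protein response showed small differences. Ern1 encodes Ire1, the kinase and nuclease that splices Xbp1 mRNA, and averaged 8.50 ± 0.21 in MYTHO-KD and 8.41 ± 0.09 in scramble muscles. Atf6, the membrane-tethered transcription factor, averaged 10.78 ± 0.08 and 10.84 ± 0.10. Xbp1, the factor made from the spliced mRNA, averaged 11.91 ± 0.39 and 11.77 ± 0.30. The 3 log2 differences of 0.09, -0.06 and 0.14 did not pass the test, with intervals inside 0.63 either way. Splicing of Xbp1 and cleavage of Atf6 are not read by a probe set of the whole gene and were not measured.

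Among 7 genes of ER-associated degradation, Edem1 stood apart from the rest by its p. Edem1 takes misfolded glycoproteins out of the calnexin cycle. It averaged 7.92 ± 0.29 in MYTHO-KD and 7.36 ± 0.16 in scramble muscles, a log2 difference of 0.56 (SE 0.184, limma unadjusted p = 0.0103, adjusted p = 0.246), the lowest p of the genes with the higher average. The ubiquitin ligase Syvn1 (Hrd1) averaged 7.80 ± 0.08 and 7.72 ± 0.34, and its adaptor Sel1l 9.97 ± 0.17 and 9.73 ± 0.28. Herpud1, which assembles with Hrd1 and is a known target of the stress response, averaged 14.80 ± 0.21 and 14.84 ± 0.22. These 3 genes had log2 differences of 0.08, 0.24 and -0.04 and did not pass the test. The derlins form part of the exit channel. Derl1 averaged 11.75 ± 0.16 and 11.77 ± 0.24, Derl2 9.16 ± 0.32 and 8.87 ± 0.24, and Derl3 5.24 ± 0.19 and 5.15 ± 0.29. Their log2 differences were -0.02, 0.29 and 0.09, and none passed the test.

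**Figure D3:**
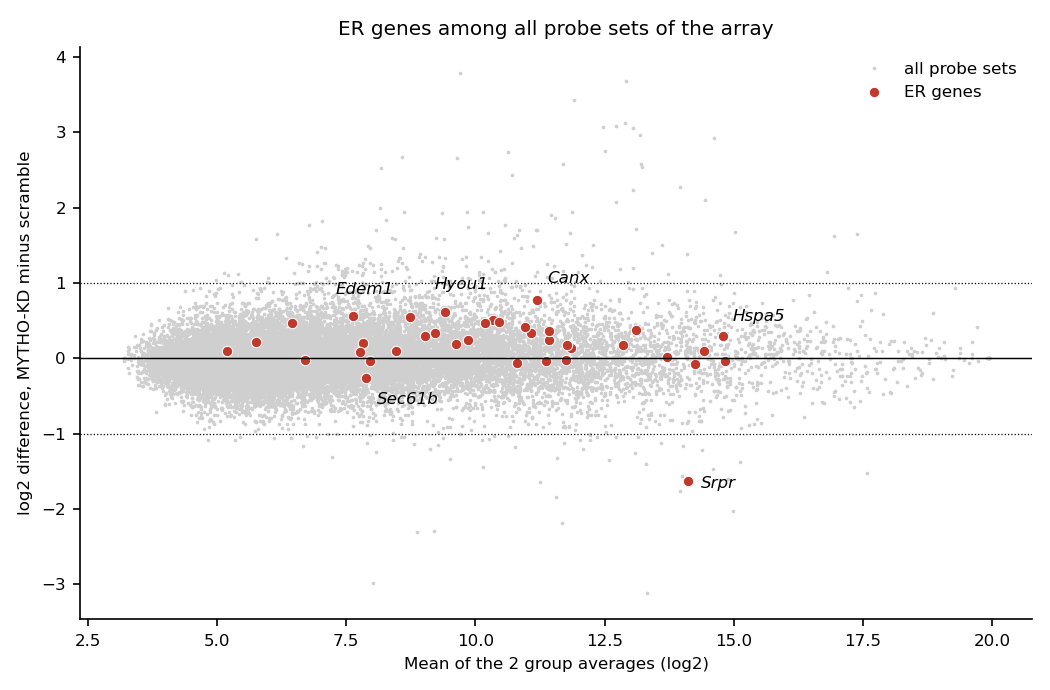
Log2 difference (MYTHO-KD minus scramble, y axis) against the mean of the 2 group averages (log2, x axis) for all 22206 probe sets in grey and the 37 ER genes in red, with dotted lines at 2-fold. Apart from Srpr at -1.63, the ER genes lie between -0.26 (Sec61b) and 0.78 (Canx), inside the cloud of all probe sets.

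Genes with an ERSE in the promoter were set beside those without. Over all probe sets, 46.9% had the higher average, and 6.48% were higher and 5.52% lower at an unadjusted p under 0.05. Of the 10 genes with the element, 9 had the higher average and 2, Canx and Dnajc3, an unadjusted p under 0.05. Their median log2 difference was 0.32, with a range from -0.02 (Ero1lb) to 0.78 (Canx). Of the 21 genes whose promoter lacked the letters, 15 had the higher average, 3 were higher and 1 lower at an unadjusted p, and the median was 0.19. These include Dnajb11 and Herpud1, which carry ERSE-II, and only exact letters inside the promoter window were counted as an ERSE. The 6 genes without a promoter in the RefSeq table (Hyou1, Manf, Atf6, Derl1, Sec61a1 and Ssr2) had a median of 0.30. Within the ERSE group Calr and Hspa5, with the element 162 and 65 bases before the start, differed by 0.02 and 0.30 and did not pass the test. The difference between these groups was not tested.

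**Figure D4:**
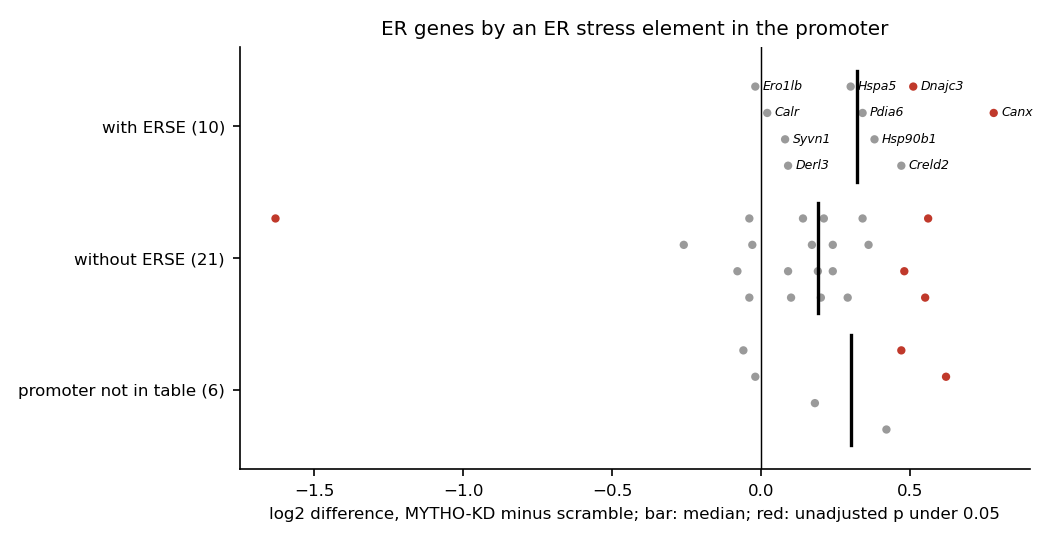
Log2 difference (MYTHO-KD minus scramble, x axis) of the ER genes by the presence of the ERSE letters in the RefSeq promoter. Each point is 1 gene, the vertical spread has no meaning and the bars are medians, at 0.32 with the element, 0.19 without it and 0.30 where the promoter table has no entry. The row without the element includes Dnajb11 and Herpud1, which carry ERSE-II. The ranges of the 3 rows overlap.

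The other genes of the same pathways gave a mixed account. Of 105 further genes in 6 lists, 15 were higher and 3 lower at an unadjusted p, and the median log2 difference was 0.09, with 0 genes past an adjusted p. At an unadjusted p, 6.48% of all probe sets were called higher and 5.52% lower. The oligosaccharyltransferase, which attaches the sugar that calnexin later reads, had 10 of 12 subunits with the higher average and 3 at an unadjusted p. Ostc averaged 9.07 ± 0.28 in MYTHO-KD and 8.16 ± 0.24 in scramble muscles (log2 difference 0.91, SE 0.193, limma adjusted p = 0.0823). Krtcap2 and Tmem258 were the others, with log2 differences of 0.73 and 0.66. Of 13 genes of collagen folding and hydroxylation, 5 were higher at an unadjusted p, with a median of 0.36. They were the collagen chaperone Serpinh1 (0.64), the lysyl hydroxylases Plod1 (0.79), Plod2 (0.70) and Plod3 (0.75, on a probe set that also names Mir702), and Crtap (0.76) of the prolyl 3-hydroxylase complex.

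Perk-branch and other signalling genes showed 1 of 19 past an unadjusted p. Since 6.48% of all probe sets were called higher and 5.52% lower, this count is not above the background. Atf3, a stress-inducible repressor, averaged 9.33 ± 0.39 in MYTHO-KD and 7.87 ± 0.69 in scramble muscles (log2 difference 1.46, SE 0.315, limma unadjusted p = 0.0006, adjusted p = 0.0888) and also passed the 2-fold rule. Atf4, the translated effector of the branch, averaged 13.47 ± 0.25 and 13.71 ± 0.24. Ddit3 (Chop) averaged 9.02 ± 0.17 and 8.77 ± 0.48, and Eif2ak3, which encodes Perk, 8.69 ± 0.44 and 8.56 ± 0.08. Their log2 differences were -0.24, 0.25 and 0.13, and none passed the test. Chac1, a target of Atf4 and Chop, had a log2 difference of 0.50 with an SE of 0.467, the widest error quoted here.

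Among 19 other ER entry genes the median was 0.03. Tram1 (0.49), Tram2 (0.59) and Asna1 (0.52) were higher at an unadjusted p, and Sec61a2 (-0.40), the second pore gene, and Caml (-0.56), a receptor subunit for tail-anchored proteins, were lower. In 20 other folding genes Txndc5 (0.58) and Qsox1 (0.56), both of disulfide chemistry, were higher, and the median was 0.035. In 22 other ERAD genes Selk (0.42) was higher and Ube2g2 (-0.42, on a probe set that also names Mir1930) lower, and the median was 0.06. With 6.48% of all probe sets called higher and 5.52% lower, these small counts are not read as results about the lists.

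Markers of other cells moved with the groups. All 16 macrophage markers had the higher average in MYTHO-KD, 10 at an unadjusted p, with a mean level of 7.74 against 6.91. Cd68 (2.53) and Lyz2 (1.94) rose at an adjusted p by limma of 0.0182 and 0.0277, and C1qb had a log2 difference of 1.27. All 15 fibroblast and matrix markers had the higher average, 8 at an unadjusted p, with a mean level of 9.80 against 8.97. Bgn (1.94) and Lum (1.49) rose at an adjusted p of 0.0290 and 0.0443, and Col3a1 had a log2 difference of 1.43. All 10 endothelial markers had the higher average, 2 at an unadjusted p (Kdr at 0.75 and Eng at 0.64), with a mean level of 9.86 against 9.49. For comparison, 46.9% of all probe sets had the higher average and 6.48% were higher at an unadjusted p.

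B cell and plasma cell markers, whose cells are rich in ER, had a mean level of 5.06 in scramble muscles and a median log2 difference of -0.07. Of these 11 markers 3 had the higher and 7 the lower average, Prdm1 (0.49) was higher at an unadjusted p, and Jchain was flagged as not expressed in MYTHO-KD. The 14 fibre markers had a median of 0.00 and a mean level of 19.14 in both groups, values that include the 5 markers at 19.93, which had no room to differ upwards. Tnnt3, Tnni2 and Mylpf, with averages from 19.52 to 19.73, had little room, so this median says little about fibre genes. Of the 14 fibre markers, Myh1 (0.59) and Myh2 (0.41) were higher and Ryr1 (-0.39) lower at an unadjusted p. Myh2 averaged 19.91 ± 0.01 in MYTHO-KD, next to the upper end of the range, so the size of its difference is not reliable. In muscle as a whole, more cells of a type and more RNA per cell cannot be told apart. The part of these other cells in the differences of the chaperone, isomerase and collagen-folding genes was not tested.

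**Figure D5:**
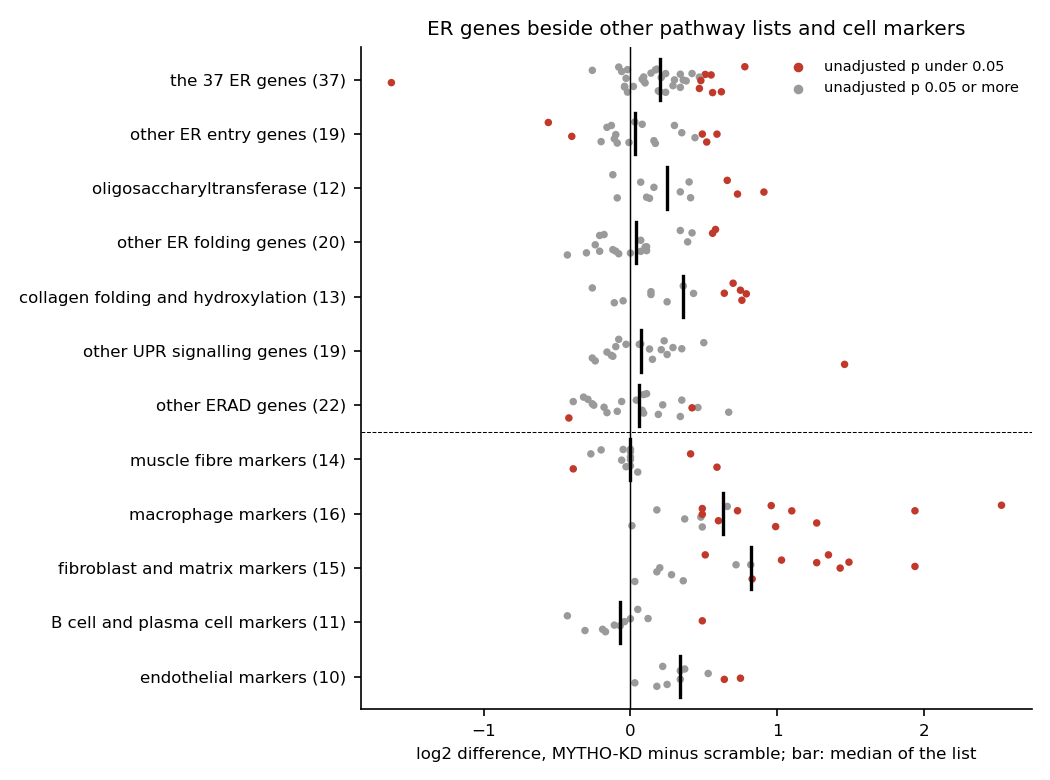
Log2 difference (MYTHO-KD minus scramble, x axis) of every gene of the ER list, of the 6 other pathway lists (above the dashed line, with the number of genes in brackets) and of the 5 cell marker lists (below it), with 1 point per gene, red at an unadjusted p under 0.05, and a bar at the median of each list. The ER genes have their bar at 0.20, and the macrophage and matrix markers at 0.63 and 0.82. The fibre markers, 5 of which sit at the upper end of the array's range and others close to it, have theirs at 0.00.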

How the data were processed

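Total RNA of 4 MYTHO-KD and 4 scramble GAS muscles was hybridised to Clariom S Mouse arrays. The authors normalised the arrays with the Transcriptome Analysis Console at default parameters and deposited log2 averages and SDs per group for 22206 probe sets. The submitters' processing notes name Affymetrix Expression Console, RMA and mm10. The kind of average is not given in the sources used here. Columns of the authors' own test (fold change, p-value, false discovery rate) were not used, and 0 columns of single arrays were left unused. Groups came from the sample labels.

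For each probe set the mean of both group variances (6 residual degrees of freedom) was shrunk by squeezeVar of limma 3.58.1 in R 4.3.3 (prior SD 0.284, prior degrees of freedom 5.85). Differences are MYTHO-KD minus scramble, p-values are two-sided, and adjustment was by Benjamini-Hochberg over all probe sets. If the deposited averages are not plain means, these p-values are approximate. The procedure was tested on simulated data. Following the methods of the study, a probe set was called at 2-fold with an unadjusted p under 0.05. Labels do not tie arrays to mice, although the scramble vector went into the opposite leg, so arrays may be paired by mouse. The test treated all arrays as independent. Its SEs, intervals and p-values rest on the spread between these muscles and ignore any such pairing.

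Named are all ER genes, the target and, in each other list, genes at an unadjusted p under 0.05 or among the 3 largest differences, of which a selection is printed. Foxred1, Fam118b, Tirap, Srp54b, Srp54c, Jchain, Atf4, Ddit3 and Eif2ak3 are named besides these. The members and lists were chosen with earlier results of these data known. Where a gene has several rows, the one with the highest mean was used. Coordinates are those of the table (mm10) or of RefSeq (GRCm38.p6), the latter for promoters and genes. Alternatives were no moderation, trend with robust moderation, unequal variances, a filter on dim probe sets (under the 30th percentile, 5.715), 1 probe set per symbol, the lowest row of a gene, 2 centrings, a 1.5-fold rule and, chosen after seeing the data, leaving out probe sets that name more than 1 gene.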

Additional observations from a re-analysis of the deposited data

How the results depend on the processing

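With each probe set's own variance, and with unequal variances, 0 of the 37 ER genes passed an adjusted p under 0.05 (moderation is the step of limma that was dropped or changed there), against 1 (Srpr) otherwise. At an unadjusted p the counts were then 7 and 6 higher and 1 lower each. At 1.5-fold in place of 2-fold, 3 genes were called (Hyou1, Canx and Srpr) in place of 1. The count of genes higher at an unadjusted p ranged from 5, without shared probe sets, to 8, and the median log2 difference from 0.18 to 0.21. Gene by gene, 289 values kept their side of an unadjusted p of 0.05, 3 newly passed and 3 no longer passed. Of the 289, 37 come from the lowest-row setting, which repeats the main fit because each gene has 1 row. Only the 2 centrings could change a difference, and 0 reversed. Calr went from 0.02 to 0.00 after centring on the brighter probe sets, and so had no direction there. Sec61g passed without moderation (unadjusted p = 0.0118) and with unequal variances (0.0120), and Creld2 after centring on all probe sets (0.0471). Pdia4 no longer passed without moderation (unadjusted p = 0.0807) or with unequal variances (0.0862), nor Manf with unequal variances (0.0739). The filter on dim probe sets left out Derl3. No paired analysis was possible because the table holds group averages, and for the same reason no replicate could be left out in turn. With 4 arrays per group, the 95% intervals of the ER genes reached 0.32 to 0.58 on the log2 scale to either side.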

Other observations

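The ERSE letters were also found in front of 19 genes on the array that are not in the list. Of these, 4 had the higher average in MYTHO-KD, 0 were higher and 3 lower at an unadjusted p under 0.05 by limma, and the median log2 difference was -0.14, with a range from -0.71 to 0.31. Over all probe sets, 46.9% had the higher average, and 6.48% were higher and 5.52% lower at that p. Among the listed ER genes with the same letters the median was 0.32, and the difference between the sets was not tested. The genes outside the list are a mixed set whose levels in muscle are not given here. They include Calr4, Alg12, Olfr59 and several genes of the same families (Esp15, Esp16, Esp18 and Esp36, and Xlr3a, Xlr3b and Xlr3c).

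The larger scatter in MYTHO-KD that was seen in all 11 chaperone and cochaperone genes was also seen in 12 of 16 macrophage markers (median SD 0.495 against 0.265) and 11 of 15 fibroblast and matrix markers (0.53 against 0.32). The fibre markers are not set beside these, since 5 of the 14 sit at the upper end of the array's range with no spread in either group. Within the ER list the larger scatter was also seen in 5 of 6 disulfide genes (0.315 against 0.255). It was seen in 2 of 3 genes of the sensors and Xbp1 (0.21 against 0.10). Other groups had it in 2 of 7 ERAD genes (0.19 against 0.24), 3 of 7 channel and TRAP genes (0.17 against 0.29) and 1 of 3 signal recognition genes (0.15 against 0.20). Of the 105 further pathway genes 51 had it (0.24 against 0.24), among them 9 of 13 for collagen folding (0.37 against 0.23). These counts were made after the values were seen.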
